A study of Saccharomyces cerevisiae with 44 samples.

Results

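The response of wild-type haploid a cells of Saccharomyces cerevisiae to the mating pheromone alpha-factor is described here, from the 8 wild-type (WT) samples of the 44 in the series that belong to batches 1 and 2. They are the samples titled as WT with alpha-factor for 1 h (4 samples) and WT untreated at 0 h (4 samples), with replicates 1 and 2 of each in batch 1 and replicates 3 and 4 in batch 2. Every sample is of the strain VM05, which is of mating type a (MATa) and carries the alleles ade1, bar1, cln1, cln2, cln3, his2, trp1, ura3 and leu2:LEU2::GAL-CLN3, so the treated and the untreated cells share all of these, and the arrest they were in before treatment is specific to such strains. As CLN1, CLN2 and CLN3, which encode the cyclins that start the cycle, are all mutant at their own loci, the strain divides only while galactose drives the GAL-CLN3 copy. The loss of BAR1, the secreted protease that degrades alpha-factor, makes such cells very sensitive to it. Cultures were grown at 30 °C in galactose and moved to glucose for 3 h, which arrested them in G1. Then a part of each culture was frozen at 0 h, and the rest received 20 µM alpha-factor for 60 min. The untreated cells were therefore sampled 60 min earlier than the treated cells, and a change over that time cannot be told apart from a change caused by pheromone in these 8 samples. For this reason 2 further sets of samples are used where a result turns on them. The first is the same strain in batch 4 (2 treated, 2 untreated), whose untreated cells also waited 60 min. The second is the ste12 deletion strain of batches 1 and 2 (ste12Δ, the alleles of VM05 plus ste12::KanMX, 4 treated and 4 untreated). The WT samples of batch 3 (4 treated, 4 untreated), whose titles give no time, were used only as a repeat. Pairs of them differed by less than the sampling noise and were averaged, which left 2 libraries a group.

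Alpha-factor is a peptide made by cells of the opposite mating type. It binds the receptor Ste2 on a cells, which frees the G protein subunits Ste4 and Ste18, and a kinase cascade on the scaffold Ste5 (Ste11, Ste7 and the kinases Fus3 and Kss1) then releases the transcription factor Ste12 from its inhibitors Dig1 and Dig2. Ste12 binds short elements close to TGAAACA in front of mating genes, alone or with partners such as Kar4 and Mcm1. Cells stop in G1 through Far1, grow a projection toward the partner, agglutinate, fuse their walls and membranes, and then fuse their nuclei.

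Libraries were made from total RNA after removal of ribosomal RNA, with a kit that keeps strand, and read at 50 nt. The 8 libraries held 4248572 to 10552263 counts. Features of ribosomal RNA took 0.156% to 2.98% of a library, and the 3 highest shares were in batch 2 (replicates 3 and 4 treated and replicate 3 untreated). Transcripts of the retrotransposon Ty3 took 7.09% to 9.35% of the counts in treated libraries and 0.521% to 0.637% in untreated libraries (8.25% ± 0.932 against 0.564% ± 0.0511, SD, n = 4 each, exact two-sided permutation p = 0.0286, the smallest that 4 against 4 allows, and 0.0571 adjusted over the 4 library measures tested). Because Ty3 and a few mating genes filled so much of the treated libraries, expression was compared after scaling by the trimmed mean of M-values, under which the median log2 fold change of all tested genes was 0.00. Scaling by library totals moved that median to -0.17 and the calls to 1209 higher and 2565 lower, so small rises depend on the scaling. For gene groups whose balance of calls moved by over 10 percentage points, the calls higher and lower under that scaling are given in brackets as "by totals". Levels below are counts per 1000000 counts of the scaled library (CPM), given for replicates 1, 2, 3 and 4 in that order, and they are not corrected for gene length. In total RNA from whole cultures, fewer cells with a transcript and less of it per cell cannot be told apart.

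The cells carried the transcripts of a cells. The receptor gene STE2 was read at 1929.9, 1713, 1365 and 1569.7 CPM in treated cells, against 1741, 1662, 1276 and 1237 CPM in untreated cells, and the a-factor gene MFA2 averaged 711 ± 236 CPM in treated cells and 667 ± 243 CPM in untreated cells (SD, n = 4 each). BAR1, which carries a mutant allele in this strain, had at most 1.5 counts in any of the 8 libraries. Of the genes of alpha cells, the receptor gene STE3 had 1 to 13 counts a library, but others were read above that, with SAG1 averaging 189 ± 32.9 CPM in treated cells and 275 ± 19.7 CPM in untreated cells and AFB1 47.2 ± 4.12 CPM in treated cells and 51.2 ± 3.19 CPM in untreated cells (SD, n = 4 each). CLN1 and CLN2 still had reads in every library (64.5 to 162 and 112 to 252 CPM of the unscaled library total), and which part of these genes the labelled alleles remove is not given in the sources used here.

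Of 5990 genes tested, 3623 (60.5%) were called different between treated and untreated cells by edgeR's quasi-likelihood test with batch as a term, at a Benjamini-Hochberg adjusted p under 0.05. The treated cells were higher at 1823 genes (30.4%) and lower at 1800 genes (30.1%). The calls of at least 2-fold were fewer (609 genes, 10.2%), with 455 higher (7.6%) and 154 lower (2.57%). At 2718 genes (45.4%) the 4 treated and the 4 untreated values did not overlap. With most genes called, a single call says little about a gene group. The counts of called members below are to be read against these shares, which are not repeated for every group. In batch 1 alone and in batch 2 alone, 3596 of the 3597 called genes with a value in both had the sign of the joint fit. As these genes were called in the joint fit of the same libraries, that count describes them and is no test. The labels do not say that replicates came from separate cultures, so the p-values measure the spread between these samples, part of which may be technical. Many of the gene groups below hold genes already known from earlier results of these data, and their counts describe them.

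The receptor and most of the cascade changed little, while the kinases at its end, the inhibitor Dig2 and the partner Kar4 rose. Of the 17 genes of the receptor and cascade, 11 were called higher (64.7%, against 30.4% of all genes) and 2 lower (STE20, -0.29, and DIG1, -0.26; 8 and 3 by totals), with a median log2 fold change of 0.20. STE2 itself had a log2 fold change of 0.16 ± 0.09 (SE, adjusted p = 0.156), and its treated and untreated values overlapped. Of the G protein genes, GPA1 (the alpha subunit) rose by 0.42 and STE4 by 0.19, and STE18 was not called. The calls of STE4 (0.19), STE7 (0.20) and STE11 (0.20) were lost under scaling by library totals, and that of STE7 also with replicates as blocks (adjusted p = 0.0644). FUS3, the kinase of the mating branch, had 377, 359, 383 and 406 CPM in treated cells, against 149, 156, 141 and 147 CPM in untreated cells (log2 fold change 1.36 ± 0.06, SE, adjusted p = 3.93e-09). All treated values lay well above all untreated ones, and the related kinase gene KSS1 rose by 1.06 ± 0.08. DIG2, which encodes a second inhibitor of Ste12, was low in untreated cells, with 156, 164, 132 and 157 CPM in treated cells, against 11.5, 11.9, 12.0 and 15.7 CPM in untreated cells (log2 fold change 3.54 ± 0.11, SE, adjusted p = 2.27e-10). No treated value came near an untreated one, while the related inhibitor gene DIG1 fell slightly. KAR4 had 462, 412, 306 and 317 CPM in treated cells, against 50.3, 54.5, 37.2 and 42.3 CPM in untreated cells (log2 fold change 3.01 ± 0.07, SE, adjusted p = 2.16e-11). TEC1, the Ste12 partner of invasive growth, rose by 1.40 ± 0.08, and STE12 itself by 0.71 ± 0.07.

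Most genes that dampen the signal rose with it. Of the 8 feedback genes, 6 were called higher, 4 of them at least 2-fold, and 2 lower (5 and 2 by totals). MSG5, a phosphatase that acts on Fus3, had 347, 323, 320.3 and 310.4 CPM in treated cells, against 62.4, 68.3, 53.4 and 63.3 CPM in untreated cells (log2 fold change 2.39 ± 0.07, SE, adjusted p = 1.32e-10). SST2, which switches the G protein off, was already abundant at 1297, 1116, 1196 and 1229 CPM in treated cells, against 629, 666, 618 and 673 CPM in untreated cells (log2 fold change 0.90 ± 0.08, SE, adjusted p = 1.21e-06). ASG7, an a-specific inhibitor of Ste4 signalling, averaged 647 ± 147 CPM in treated cells and 40.6 ± 9.38 CPM in untreated cells (SD, n = 4 each). PTP2, another phosphatase, and AFR1, which regulates the receptor and shapes the projection, rose by 1.45 ± 0.09 and 1.85 ± 0.06. The phosphatase gene PTP3 and the casein kinase gene YCK2 fell (-0.59 and -0.36), and the rise of YCK1 (0.14) lost its call in batch 1 or batch 2 alone and with replicates as blocks (adjusted p = 0.0679), and turned to -0.04 under scaling by library totals. Other a-specific genes moved little. MFA1, which encodes a-factor, fell by 0.55. The a-factor exporter gene STE6 had -0.20, a call lost with replicates as blocks (adjusted p = 0.0541), and AGA2, the binding subunit of a-agglutinin, had 0.52, a call lost in batch 1 alone.

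The promoters of 4 strongly induced genes show the element that Ste12 binds, and they are printed here because they carry the motif in 1, 2 or 3 copies. Each is the 300 bases before the start codon, read from the RefSeq R64 assembly (sacCer3) on the strand of the gene, 5′ to 3′, with capitals at TGAAACA or its reverse complement.
FUS1 (chrIII:71503-71802, plus strand): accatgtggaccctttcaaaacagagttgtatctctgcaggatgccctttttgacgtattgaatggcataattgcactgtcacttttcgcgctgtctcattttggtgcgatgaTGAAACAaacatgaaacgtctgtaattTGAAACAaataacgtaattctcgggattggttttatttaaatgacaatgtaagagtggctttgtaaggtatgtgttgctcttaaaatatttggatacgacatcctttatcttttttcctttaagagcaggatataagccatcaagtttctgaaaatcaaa
PRM1 (chrXIV:110617-110916, plus strand): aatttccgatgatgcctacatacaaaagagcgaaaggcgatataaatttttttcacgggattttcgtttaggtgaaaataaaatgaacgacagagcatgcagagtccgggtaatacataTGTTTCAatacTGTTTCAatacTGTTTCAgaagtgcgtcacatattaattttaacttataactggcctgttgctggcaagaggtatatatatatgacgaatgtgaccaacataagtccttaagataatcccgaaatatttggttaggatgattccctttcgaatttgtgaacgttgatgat
FUS2 (chrXIII:736626-736925, plus strand): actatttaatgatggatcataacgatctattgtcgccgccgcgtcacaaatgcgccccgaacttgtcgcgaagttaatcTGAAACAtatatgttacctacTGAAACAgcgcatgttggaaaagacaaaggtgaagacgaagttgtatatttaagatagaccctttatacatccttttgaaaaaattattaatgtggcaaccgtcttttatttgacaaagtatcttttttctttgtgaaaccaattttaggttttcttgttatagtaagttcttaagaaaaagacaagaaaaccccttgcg
CIK1 (chrXIII:659445-659744, plus strand): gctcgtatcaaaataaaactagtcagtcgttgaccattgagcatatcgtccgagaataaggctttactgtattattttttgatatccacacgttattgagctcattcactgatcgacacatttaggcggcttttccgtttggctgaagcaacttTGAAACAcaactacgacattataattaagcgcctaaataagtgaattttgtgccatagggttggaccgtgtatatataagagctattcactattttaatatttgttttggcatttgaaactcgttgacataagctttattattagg
FUS1 has 2 matches, with 180 and 153 bases between each and the start codon, and FUS2 has 2, with 214 and 193 bases. PRM1 has 3, all in the reverse direction and 11 bases apart from start to start, with 174, 163 and 152 bases. CIK1 has 1, with 139 bases. TGAAACA was searched on both strands in 5655 promoters of this length, and 7.18% held it 1 or more times and 0.336% 2 or more times. Among the 420 promoters of genes called at least 2-fold higher, 9.29% held it and 2.38% held 2 or more, and among the 41 of genes at least 8-fold higher, 22% held it and 9.76% held 2 or more. It was in the window of 7 of 13 adhesion and fusion genes and 5 of 10 PRM genes. It was also in that of 5 of 7 a-specific genes and 4 of 8 genes of a-factor maturation. Of those 2 groups, 1 and 0 genes were called at least 2-fold higher. A match is a description of letters and not a measured binding site, and FIG1, KAR3 and IME4, which rose strongly, had none in their windows.

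Cell adhesion and fusion genes rose steeply, 4 of them by at least 8-fold (FIG1, FIG2, FUS2 and PRM1). Of 13 such genes, 10 were called higher (76.9%, against 30.4% of all), 8 of them at least 2-fold (against 7.6% of all), with a median log2 fold change of 1.38. FIG1, a membrane protein of calcium uptake and fusion, had 582, 507, 469.9 and 553 CPM in treated cells, against 7.94, 10.5, 8.24 and 8.46 CPM in untreated cells (log2 fold change 5.90 ± 0.10, SE, adjusted p = 4.01e-12). PRM1, which acts in plasma membrane fusion, had 1215, 1222, 1055 and 1184 CPM in treated cells, against 37.5, 51.7, 31.5 and 35.6 CPM in untreated cells (log2 fold change 4.91 ± 0.12, SE, adjusted p = 2.45e-11). In both genes every treated library stood far above every untreated one. FUS1, a membrane protein named for the cell fusion defect of its mutants, had 871, 825, 677 and 759.9 CPM in treated cells, against 105, 110.2, 96.5 and 106 CPM in untreated cells (log2 fold change 2.90 ± 0.07, SE, adjusted p = 2.87e-11). FUS2, which works with Rvs161 at the zone of cell fusion, had 568, 531, 499 and 527 CPM in treated cells, against 22.5, 31.2, 30.1 and 28.2 CPM in untreated cells (log2 fold change 4.23 ± 0.09, SE, adjusted p = 1.74e-11), and RVS161 rose by 1.38 ± 0.06. AGA1, the wall anchor of a-agglutinin, had 10417, 8569, 7596 and 8906 CPM in treated cells, against 2392, 2299.5, 1824 and 1797 CPM in untreated cells (log2 fold change 2.10 ± 0.16, SE, adjusted p = 4e-07). The adhesin gene FIG2 averaged 17888 ± 2293 CPM in treated cells and 1215 ± 66.7 CPM in untreated cells (SD, n = 4 each). The wall glucanase-like genes SCW10 and SCW4 parted, with SCW10 at 3813, 3118, 2346 and 2834 CPM in treated cells, against 1545, 1301, 1197 and 1080.0 CPM in untreated cells (1.23) and SCW4 averaging 502 ± 67.7 CPM in treated cells and 2243 ± 359 CPM in untreated cells (log2 fold change -2.15 ± 0.14, SE, adjusted p = 1.23e-07). KEL1, a negative regulator of fusion, fell by 0.37, and FIG4 was not called.

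**Figure D1:**
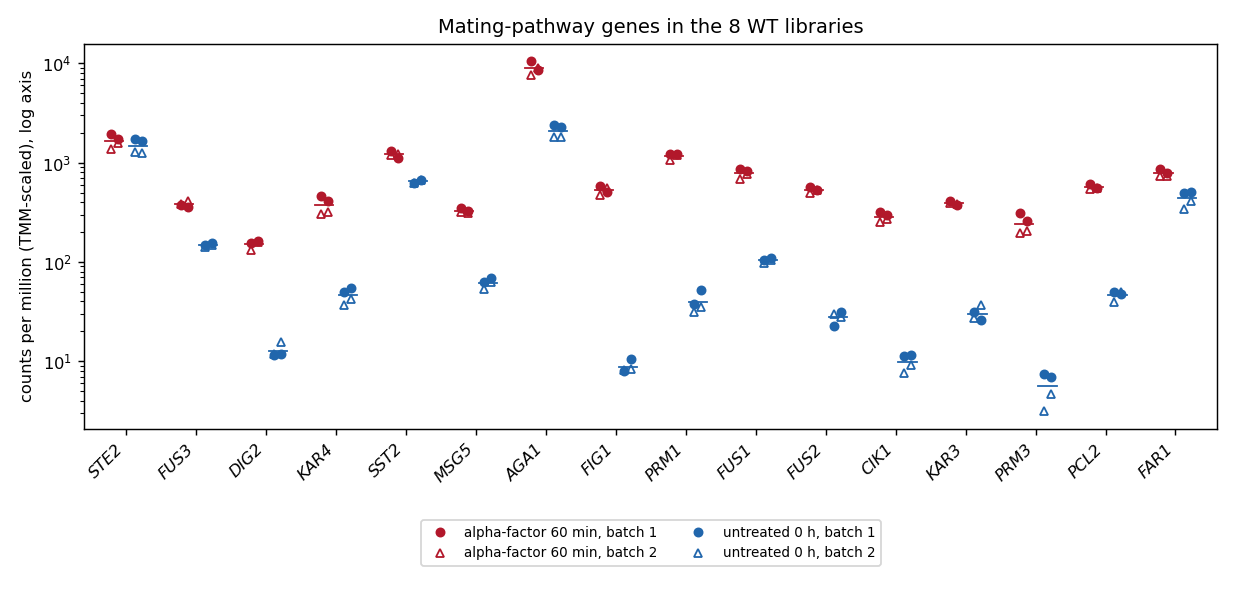
Levels of 16 mating-pathway genes in each WT library, in CPM on a log axis, with the 4 alpha-factor libraries in red to the left of the 4 untreated libraries in blue, filled circles for batch 1, open triangles for batch 2 and a bar at the mean of each group. The groups overlap for STE2 (1365 to 1929.9 CPM in treated and 1237 to 1741 CPM in untreated libraries), whereas every treated library stands far above every untreated one for FIG1, PRM1, CIK1 and PRM3.

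The PRM genes, named as pheromone-regulated membrane proteins, rose as a family. The family was defined by such induction in earlier work, so its direction here is no independent evidence. Of 10, 9 were called higher, all 9 at least 2-fold, with a median log2 fold change of 3.69. PRM6, linked to potassium uptake, averaged 139 ± 7.85 CPM in treated cells and 2.87 ± 0.782 CPM in untreated cells (5.57), PRM2 rose by 5.10, PRM4 by 4.12, PRM8 by 3.26 and PRM10 by 2.98. PRM5, a gene that the cell-wall pathway also controls, rose by 2.23, and PRM9 by 1.67. PRM7 was the exception, with -0.54, and its call was lost without untreated replicate 3 (-0.30), without untreated replicate 1 (-0.38) and without any 1 of the 4 treated libraries (-0.49 to -0.59).

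Among genes of nuclear fusion the rises fell on a few members. Of 15, 8 were called higher, 5 at least 2-fold, and 2 lower (6 and 2 by totals). KAR3, the motor that draws the nuclei together along microtubules, had 411, 373, 394 and 381 CPM in treated cells, against 31.1, 26.1, 27.1 and 36.5 CPM in untreated cells (log2 fold change 3.69 ± 0.10, SE, adjusted p = 6.1e-11). CIK1, its partner in mating cells, had 315, 295, 249.9 and 271 CPM in treated cells, against 11.2, 11.5, 7.56 and 9.25 CPM in untreated cells (log2 fold change 4.85 ± 0.09, SE, adjusted p = 4.3e-12). PRM3, a nuclear envelope protein of nuclear fusion, had 311, 259, 197 and 203 CPM in treated cells, against 7.5, 7.01, 3.14 and 4.67 CPM in untreated cells (log2 fold change 5.49 ± 0.12, SE, adjusted p = 1.74e-11). The groups lay far apart in these 3 genes. KAR5, which acts in fusion of the nuclear envelopes, rose by 3.09 ± 0.10, and the chaperone gene JEM1 by 0.76 ± 0.08. VIK1, the other partner of Kar3, which serves in dividing cells, was not called (0.26 ± 0.11, adjusted p = 0.0659), nor were KAR9, BIM1, MPS3 and SEC66, and KAR1 and BIK1 fell (-0.63 and -0.35). Among 27 genes of microtubules, motors and the spindle pole, which include KAR3 and CIK1, 20 were called higher and 2 lower (13 and 2 by totals). Examples were the spindle pole genes SPC42 (1.36), SPC29 (1.38) and SPC97 (1.11) and the microtubule-binding gene STU2 (1.21).

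Wall-building genes changed in both directions. Of 40 genes of the cell wall and its integrity pathway, 17 were called higher and 13 lower (42.5% and 32.5%, against 30.4% and 30.1% of all genes, and 16 and 18 by totals). By at least 2-fold, 10 were higher and 6 lower. The rises included the sensor genes WSC2 (2.24) and MID2 (1.41), the kinase gene SLT2, the pseudokinase gene KDX1 (1.94), and the wall genes CWP1 (2.34), CRR1 (2.22) and EXG1 (1.64). SLT2, the kinase at the end of the integrity cascade, had 580.4, 548, 502 and 508 CPM in treated cells, against 171, 183, 210.1 and 167 CPM in untreated cells (log2 fold change 1.54 ± 0.08, SE, adjusted p = 2.37e-08). GSC2, a subunit of the enzyme that makes beta-glucan, had 2973, 2725, 2822 and 2909 CPM in treated cells, against 410.4, 403, 714 and 519 CPM in untreated cells (log2 fold change 2.51 ± 0.15, SE, adjusted p = 5.89e-08), while FKS1, the gene for its counterpart in growing cells, had -0.37. Among the falls were TIP1, UTR2 (-1.47), PIR3 (-1.35), SPI1 (-1.08), HSP150 (-1.01) and SCW4. TIP1, a mannoprotein of the wall, had 249, 212, 373 and 456 CPM in treated cells, against 2503, 2592, 2269 and 2135 CPM in untreated cells (log2 fold change -2.93 ± 0.20, SE, adjusted p = 1.63e-07), and its 2 batches differed within the treated group, with both values of batch 2 above both of batch 1. The chitin genes were called in 1 direction, with 10 of 13 called higher (76.9%), 0 lower, and a median log2 fold change of 0.76. CHS1, a chitin synthase, had 1088, 1029, 966 and 987 CPM in treated cells, against 278, 270.0, 350.2 and 269 CPM in untreated cells (log2 fold change 1.80 ± 0.10, SE, adjusted p = 2.17e-08). GFA1, the first enzyme of the branch that makes the chitin precursor, had 1014, 940.0, 946 and 951 CPM in treated cells, against 328, 297, 338 and 315 CPM in untreated cells (log2 fold change 1.59 ± 0.07, SE, adjusted p = 3.23e-09), and CHS3, the main chitin synthase, rose by 1.39 ± 0.06. Of 28 cell polarity genes, 11 were called higher and 4 lower (6 and 10 by totals), with AFR1, MSB4 (1.57) and AXL2 (1.20) at the top.

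Genes of daughter-cell separation were all called, 5 higher and 7 lower of 12. SCW11, a wall glucanase, had 803, 667, 759 and 772 CPM in treated cells, against 79.8, 77.1, 99.7 and 83.3 CPM in untreated cells (log2 fold change 3.14 ± 0.09, SE, adjusted p = 7.21e-11). CTS1, the chitinase that parts mother and daughter, had 586, 532, 770.1 and 684 CPM in treated cells, against 387, 391, 525 and 304 CPM in untreated cells (log2 fold change 0.67 ± 0.14, SE, adjusted p = 0.0014). DSE2, a daughter-specific wall protein, moved the other way with 75.7, 64.2, 98.1 and 67.0 CPM in treated cells, against 191, 179, 272 and 153 CPM in untreated cells (log2 fold change -1.38 ± 0.17, SE, adjusted p = 2.08e-05), and DSE1 (-1.28) and PRY3 (-1.17) fell likewise. In batch 4, where the control waited as long as the treated cells, DSE2, DSE1 and PRY3 had 0.30, 0.67 and 0.43.

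Genes of the cell cycle engine changed in both directions. PCL2, a cyclin of the Pho85 kinase, had 613, 549, 547 and 561 CPM in treated cells, against 49.4, 47.1, 39.7 and 49.4 CPM in untreated cells (log2 fold change 3.61 ± 0.08, SE, adjusted p = 1.74e-11), which was the largest change of the 20 genes of the G1/S switch. FAR1, the inhibitor through which pheromone holds cells in G1, had 857, 793, 727 and 741 CPM in treated cells, against 489.6, 504, 339.6 and 414 CPM in untreated cells (log2 fold change 0.85 ± 0.08, SE, adjusted p = 2.95e-06). CLN2 had 134, 117, 142 and 136 CPM in treated cells, against 236, 188, 179 and 195 CPM in untreated cells (log2 fold change -0.59 ± 0.09, SE, adjusted p = 0.000165), and CLN1, PCL1, SWI4 and YOX1 were lower too (-0.73, -1.38, -0.52 and -1.90). PCL1 lay at only a few CPM and was not called in batch 2 alone. RNR1, the ribonucleotide reductase subunit that cells make at the entry to S phase, had 78.6, 76.2, 141 and 104 CPM in treated cells, against 338, 318, 299 and 313 CPM in untreated cells (log2 fold change -1.69 ± 0.14, SE, adjusted p = 1.23e-06). CLB6, an S-phase cyclin, was low in all libraries, with 2.27, 1.12, 3.04 and 3.48 CPM in treated cells, against 7.94, 5.73, 5.69 and 6.7 CPM in untreated cells (log2 fold change -1.33 ± 0.25, SE, adjusted p = 0.000633). CDC6, which loads replication origins, averaged 2.5 ± 1.08 CPM in treated cells and 7.81 ± 2.57 CPM in untreated cells (-1.54). As groups, the 20 genes of the G1/S switch had 7 calls higher and 7 lower (35% each, and 4 and 7 by totals). The 58 DNA replication genes had 17 higher and 14 lower (8 and 26 by totals, and 9 higher in batch 1 alone). The shares of the replication genes were 29.3% and 24.1%, against 30.4% and 30.1% of all genes. POL30, the sliding clamp of replication, was among those higher (1.26). Of 28 genes of B-type cyclins and mitosis, 14 were called higher and 7 lower (9 and 10 by totals), with CHS2, which makes the chitin of the septum, among the rises (1.31). Of the histone genes, the linker histone gene HHO1 rose by 1.97, HTB1 and HTB2 fell (-0.54 and -0.70), and 5 of 10 were not called.

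**Figure D2:**
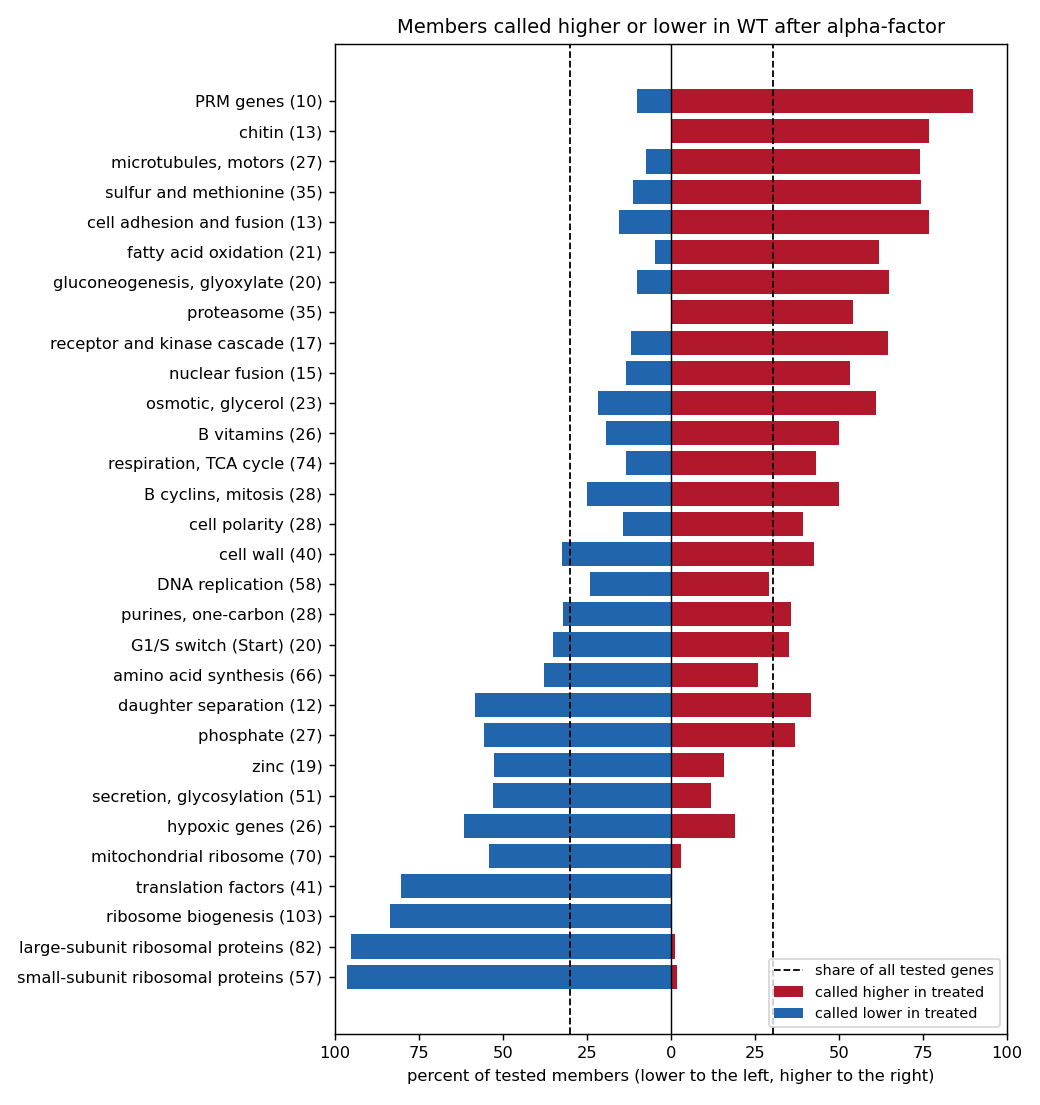
Share of the tested members of 30 gene groups called higher (red, to the right) or lower (blue, to the left) in treated against untreated WT cells, in percent, with the number of members in brackets and dashed lines at the shares of all tested genes, 30.4% and 30.1%. Of the groups drawn, PRM genes, chitin, adhesion and fusion, and sulfur and methionine genes extend furthest to the right, and ribosomal protein and ribosome biogenesis genes furthest to the left.

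Genes for making proteins fell broadly. Of 57 genes for proteins of the small ribosomal subunit, 55 were called lower (96.5%, against 30.1% of all genes), with a median log2 fold change of -0.70, and of 82 for the large subunit, 78 (95.1%), with a median of -0.66. Ribosomal proteins of the small subunit took 1.61% ± 0.11 of all counts in treated cells and 2.94% ± 0.449 in untreated cells, and those of the large subunit 2.39% ± 0.177 and 4.3% ± 0.687 (SD, n = 4 each). The extremes were RPS26B (-1.11 ± 0.06) and RPL9A (-1.16 ± 0.08), and a single gene of each subunit was called higher, RPS9A (0.69) and RPL9B (0.25). Both are members of near-identical pairs whose reads cannot be assigned with certainty, as are most ribosomal protein genes. Of 103 genes of ribosome biogenesis, 86 were called lower and 0 higher, with a median of -0.41. RRP5, which processes the precursor of ribosomal RNA, had 319.7, 335, 332 and 286 CPM in treated cells, against 642, 620.0, 630.2 and 559 CPM in untreated cells (log2 fold change -0.94 ± 0.07, SE, adjusted p = 2.91e-07). Its promoter is shown for the PAC element GATGAG, in capitals, which lies there in 2 overlapping copies. Between these copies and the start codon lie 150 and 145 bases.
RRP5 (chrXIII:731124-731423, minus strand): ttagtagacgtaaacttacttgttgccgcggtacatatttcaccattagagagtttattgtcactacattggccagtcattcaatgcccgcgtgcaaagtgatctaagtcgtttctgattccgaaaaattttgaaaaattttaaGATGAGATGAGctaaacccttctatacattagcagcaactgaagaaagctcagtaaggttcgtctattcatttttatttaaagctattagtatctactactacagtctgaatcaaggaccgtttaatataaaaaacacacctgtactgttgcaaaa
GATGAG or its reverse complement was in 93 of the 103 promoters of ribosome biogenesis genes (90.3%) and in 19.4% of all promoters. It was in 20.3% of the 148 promoters of genes called at least 2-fold lower, which include 0 ribosome biogenesis genes. These shares describe letters, and a part of the element in the fall was not tested. Of 41 translation factor genes, 33 fell and 0 rose, with a median of -0.43. YEF3, the fungal elongation factor 3, had 2255, 2282, 2122 and 2113 CPM in treated cells, against 4600.2, 4429, 3687 and 3294 CPM in untreated cells (log2 fold change -0.86 ± 0.12, SE, adjusted p = 6.76e-05). Its untreated values were lower in batch 2 than in batch 1, and no treated value reached any of them. Of 70 mitochondrial ribosomal protein genes, 2 were called higher and 38 lower (14 lower in batch 1 alone, and 1 and 54 by totals), with MRPS8 (-1.05) the lowest. RNA polymerase I and III genes had 15 of 37 lower and 5 higher (2 and 20 by totals), led by RPA190 (-0.70), and 27 of 51 genes of secretion and glycosylation were lower (13 in batch 2 alone; 3 and 36 by totals), led by MNN1, a mannosyltransferase (-2.43 ± 0.11). Proteasome genes were called higher in 19 of 35 (11 in batch 1 alone), with a median of 0.19, and under scaling by library totals 3 were higher and 4 lower, so their direction depends on the scaling.

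**Figure D3:**
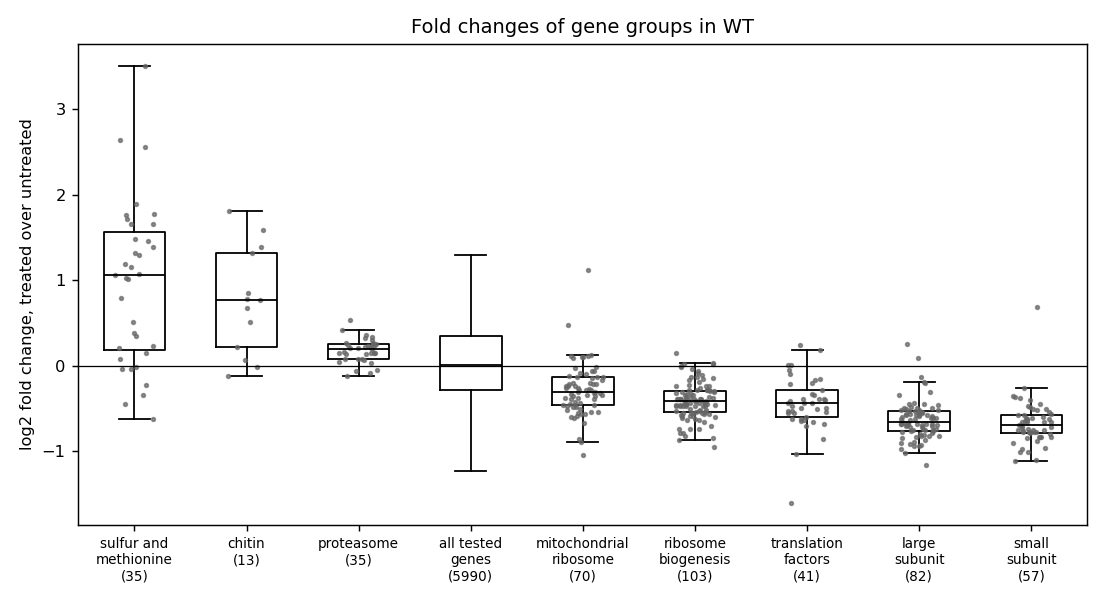
Log2 fold changes of treated over untreated WT cells for the tested members of 8 gene groups and for all 5990 tested genes, with a dot for each member (not drawn for all genes), boxes from the first to the third quartile with the median, and whiskers to the farthest value within 1.5 times the box. The medians run from 1.06 for sulfur and methionine genes to -0.70 for small-subunit ribosomal proteins, and the median of all genes is 0.00.

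Genes of sulfur assimilation and methionine synthesis rose. Of 35 genes, 26 were called higher (74.3%), 20 of them at least 2-fold, and 4 lower (23 and 5 by totals). The median log2 fold change was 1.06, with 0.94 in batch 3 but only 0.27 in batch 4. SUL1, a sulfate permease, had 53.2, 60.7, 64.2 and 89.0 CPM in treated cells, against 5.07, 5.73, 7.46 and 5.46 CPM in untreated cells (log2 fold change 3.50 ± 0.14, SE, adjusted p = 2.15e-09). MET3, which activates sulfate in the first step of assimilation, had 333, 327, 291 and 332 CPM in treated cells, against 47.4, 48.2, 43.0 and 67.2 CPM in untreated cells (log2 fold change 2.63 ± 0.12, SE, adjusted p = 6.93e-09), and MET14, the kinase of the next step, rose by 2.56 ± 0.11. MET6, methionine synthase, had 1655, 1506, 1588 and 1730.0 CPM in treated cells, against 362, 361, 712 and 628 CPM in untreated cells (log2 fold change 1.71 ± 0.15, SE, adjusted p = 1.44e-06), and its untreated values were higher in batch 2 than in batch 1. Other steps of the path that rose were MET16 (1.89), MET10 (1.65), MET5 (1.38), MET17 (1.01), the homoserine branch gene MET2 (1.66), the methionine permease gene MUP1 (1.48) and the S-adenosylmethionine synthase gene SAM2 (1.19). Those that fell were CBF1, which encodes a regulator of the path, and CYS4, SAH1 and ADO1. The promoters of MET3 and MET14 are shown for the elements of the regulators of this path, TGTGGC for Met31 and Met32 and CACGTG for Cbf1.
MET3 (chrX:455939-456238, plus strand), with TGTGGC, here as its reverse complement, in capitals: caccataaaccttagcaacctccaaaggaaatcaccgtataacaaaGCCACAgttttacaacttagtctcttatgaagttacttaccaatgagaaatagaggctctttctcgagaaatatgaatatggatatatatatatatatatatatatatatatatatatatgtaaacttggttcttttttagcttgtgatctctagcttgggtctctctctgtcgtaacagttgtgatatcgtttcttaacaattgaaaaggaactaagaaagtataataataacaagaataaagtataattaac
MET14 (chrXI:439386-439685, minus strand), with CACGTG in capitals: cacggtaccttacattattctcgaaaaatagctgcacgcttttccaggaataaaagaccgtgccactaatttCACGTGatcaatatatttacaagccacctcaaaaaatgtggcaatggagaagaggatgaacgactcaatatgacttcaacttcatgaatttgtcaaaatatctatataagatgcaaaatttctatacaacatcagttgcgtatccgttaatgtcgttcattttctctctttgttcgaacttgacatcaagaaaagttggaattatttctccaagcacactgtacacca
On both strands, TGTGGC was in 19 of the 35 promoters of this group (54.3%) and in 8.01% of all, and CACGTG, which reads the same on both strands, in 12 of the 35 and in 3.54% of all.

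Phosphate genes changed in both directions. Of 27, 10 were called higher and 15 lower (6 and 16 by totals). Among the falls were the secreted phosphatases PHO5, PHO3 (-2.97), PHO11 (-1.99) and PHO12 (-2.01), the permease gene PHO84, SPL2 (-1.55) and the polyphosphate synthase genes VTC1, VTC2, VTC3 and VTC4 (-0.46 to -1.42). PHO5 and PHO3, and PHO11 and PHO12, are close copies whose reads may be shared. PHO5 had 24.3, 14.0, 12.9 and 13.2 CPM in treated cells, against 205, 166, 129 and 97.2 CPM in untreated cells (log2 fold change -3.22 ± 0.15, SE, adjusted p = 7.99e-09). PHO84, the main phosphate permease, had 339, 353, 278 and 327 CPM in treated cells, against 1330.1, 1086, 915 and 776 CPM in untreated cells (log2 fold change -1.64 ± 0.10, SE, adjusted p = 8.81e-08). PHO89, a sodium-coupled phosphate permease, moved the other way with 55.9, 68.0, 60.7 and 60.3 CPM in treated cells, against 5.07, 3.66, 10.1 and 5.02 CPM in untreated cells (log2 fold change 3.30 ± 0.20, SE, adjusted p = 5.69e-08). The treated and the untreated values did not overlap in any of these 3 genes. The element CACGTG, which Pho4 also binds, was in 11 of the 27 promoters (40.7%), and PHO5 is shown as an example of a gene that fell while holding it.
PHO5 (chrII:430952-431251, minus strand): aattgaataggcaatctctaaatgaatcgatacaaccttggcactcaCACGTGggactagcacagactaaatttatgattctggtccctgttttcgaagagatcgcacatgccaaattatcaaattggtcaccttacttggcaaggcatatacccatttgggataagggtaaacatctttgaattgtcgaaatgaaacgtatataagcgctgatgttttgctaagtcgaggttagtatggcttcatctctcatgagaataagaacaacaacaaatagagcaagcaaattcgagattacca

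Hexose transporter genes changed in both directions, with 4 of 15 called higher and 6 lower (4 and 11 by totals; 3 lower in batch 1 alone), which is 26.7% and 40% against 30.4% and 30.1% of all genes. HXT2, a high-affinity glucose transporter, had 285, 277, 351 and 374 CPM in treated cells, against 14.1, 12.9, 59.1 and 23.6 CPM in untreated cells (log2 fold change 3.63 ± 0.28, SE, adjusted p = 5.5e-07), and HXT1, the low-affinity transporter, had 154, 146, 163 and 193 CPM in treated cells, against 548, 323, 486 and 434 CPM in untreated cells (log2 fold change -1.45 ± 0.14, SE, adjusted p = 2.58e-06). Hexose transporter genes resemble each other, and 8 of the 23 listed were too low to test. Of 29 genes of glycolysis and fermentation, 7 were higher and 10 lower (24.1% and 34.5%, near the shares of all genes, and 6 and 17 by totals). PGM1, a phosphoglucomutase, had 707, 719, 662 and 647 CPM in treated cells, against 93.5, 85.2, 90.3 and 94.0 CPM in untreated cells (log2 fold change 2.91 ± 0.06, SE, adjusted p = 1.74e-11). CAT8, the activator of gluconeogenic genes, rose by 2.57 ± 0.08, and 13 of 20 gluconeogenesis and glyoxylate genes were called higher (8 in batch 2 alone) and 2 lower (9 and 4 by totals). Of 21 fatty acid oxidation genes, 13 were higher and 1 lower (10 and 2 by totals). The acetaldehyde dehydrogenase genes ALD4 and ALD6 rose by 2.42 and 1.83. Of 23 genes of osmotic stress and glycerol, 14 were higher and 5 lower (9 and 8 by totals). GPD1, the first enzyme of glycerol synthesis, had 516, 522, 515 and 551 CPM in treated cells, against 192, 171, 215 and 202 CPM in untreated cells (log2 fold change 1.44 ± 0.06, SE, adjusted p = 4.45e-09), and GRE2 rose by 2.30. Of 74 genes of respiration, 32 were called higher and 10 lower (20 and 19 by totals; 4 lower in batch 1 alone). Their median was 0.16, but -0.09 in batch 3 and -0.09 in batch 4. In batch 4 a more negative response was called for 15 of them and a more positive one for 0 (against 8.78% and 9.55% of all genes).

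Genes that respond to oxygen and zinc fell more than they rose in batches 1 and 2. Of 26 hypoxic genes tested, 5 rose and 16 fell (3 and 18 by totals), and of 19 zinc-responsive genes, 3 rose and 10 fell. The median of the hypoxic genes was -0.40, but -0.09 in batch 3 and -0.04 in batch 4. For the zinc-responsive genes the medians were -0.32, -0.15 and -0.26 in the same order. HEM13, an oxygen-dependent enzyme of heme synthesis, had 82.1, 73.9, 88.9 and 86.0 CPM in treated cells, against 335, 547, 298 and 289 CPM in untreated cells (log2 fold change -2.12 ± 0.17, SE, adjusted p = 6.94e-07). OLE1, the fatty acid desaturase, fell by 1.76. IZH4, a membrane protein linked to zinc, had 6.6, 5.12, 6.46 and 5.67 CPM in treated cells, against 108, 119, 44.6 and 48.8 CPM in untreated cells (log2 fold change -3.60 ± 0.20, SE, adjusted p = 3.96e-08), and its untreated values in batch 1 were well above those in batch 2. FET3, the iron oxidase of high-affinity uptake, had 193, 182, 429 and 283 CPM in treated cells, against 629, 819, 814 and 649.9 CPM in untreated cells (log2 fold change -1.49 ± 0.19, SE, adjusted p = 3.55e-05), and the low-affinity metal transporter gene FET4 fell by 2.72. LYS20, the first enzyme of lysine synthesis, had 48.9, 60.2, 57.2 and 61.1 CPM in treated cells, against 260.2, 183, 133 and 118 CPM in untreated cells (log2 fold change -1.54 ± 0.18, SE, adjusted p = 1.4e-05). The 66 amino acid synthesis genes had 17 higher and 25 lower (16 lower in batch 2 alone, and 12 and 36 by totals). These are 25.8% and 37.9%, against 30.4% and 30.1% of all genes. ADE17, an enzyme of the last steps of purine synthesis, rose, with 346, 262, 291 and 297 CPM in treated cells, against 95.1, 78.7, 52.0 and 54.6 CPM in untreated cells (log2 fold change 2.14 ± 0.14, SE, adjusted p = 9.5e-08). SNZ1, which acts in vitamin B6 synthesis, had 81.3, 65.0, 54.6 and 64.6 CPM in treated cells, against 10.4, 8.6, 7.16 and 6.43 CPM in untreated cells (log2 fold change 3.05 ± 0.11, SE, adjusted p = 8.58e-10). Among the most strongly reduced transcripts were also INA1, with 159.8, 176, 136 and 116 CPM in treated cells, against 1908, 1866, 1661 and 1551 CPM in untreated cells (log2 fold change -3.58 ± 0.09, SE, adjusted p = 4.27e-11), MRH1, a plasma membrane protein, with 86.6, 111, 147 and 162 CPM in treated cells, against 1586, 1529, 1218 and 1069.6 CPM in untreated cells (log2 fold change -3.42 ± 0.20, SE, adjusted p = 4.94e-08), and YGP1, a secreted glycoprotein, with 189, 171, 271 and 361 CPM in treated cells, against 3231, 2629.8, 1992 and 2042 CPM in untreated cells (log2 fold change -3.34 ± 0.25, SE, adjusted p = 4.16e-07). Treated values of MRH1 and YGP1 were higher in batch 2 than in batch 1 and still far below the lowest untreated value.

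**Figure D4:**
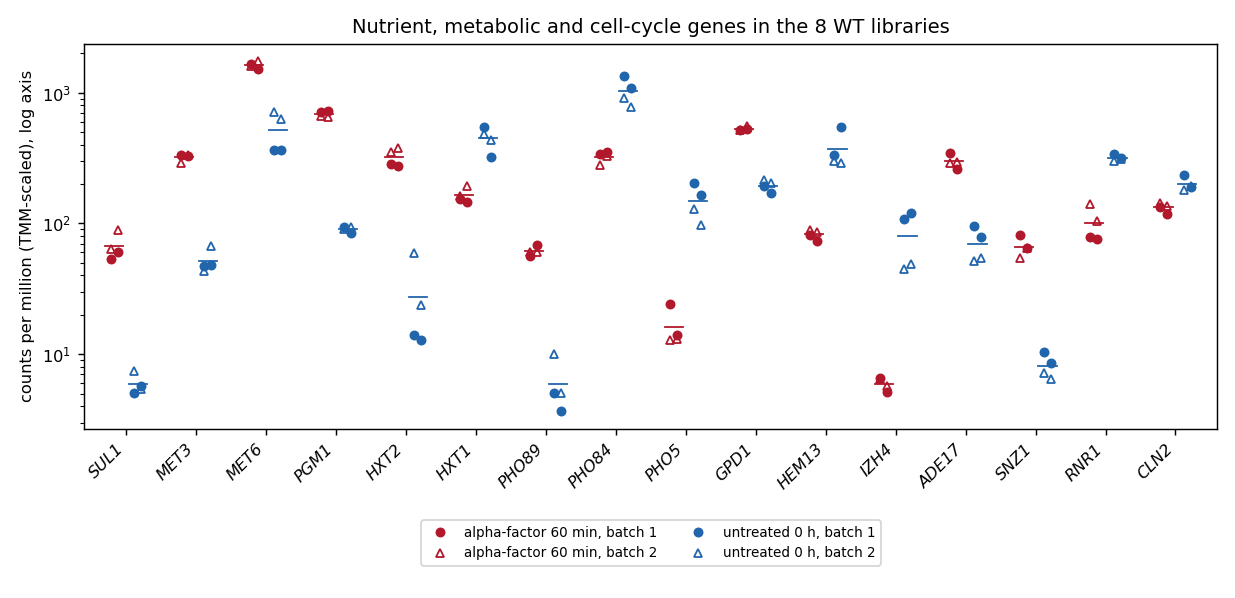
Levels of 16 nutrient, metabolic and cell-cycle genes in each WT library, in CPM on a log axis, with the 4 alpha-factor libraries in red to the left of the 4 untreated libraries in blue, filled circles for batch 1, open triangles for batch 2 and a bar at the mean of each group. The groups do not overlap in any of the 16 genes, with SUL1 at 53.2 to 89.0 CPM treated against 5.07 to 7.46 CPM untreated, and IZH4 at 5.12 to 6.6 CPM against 44.6 to 119 CPM.

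Storage and stress genes changed in both directions, and several of them responded differently in batch 4. Of 22 trehalose and glycogen genes, 7 were called higher and 9 lower (31.8% and 40.9%, against 30.4% and 30.1% of all genes, and 5 and 12 by totals). A more positive response in batch 4 was called for 12 of them (against 9.55% of all genes). GSY2, a glycogen synthase, was at 0.48 in batch 4 and -0.91 in batches 1 and 2, and PIG2, a regulator of the phosphatase that activates it, at 0.07 and -1.42. Of 34 genes of the general stress response, 19 were called higher and 9 lower (16 and 12 by totals), with a more positive response in batch 4 at 13 (against 9.55% of all genes). HSP12, a small membrane-protecting protein, rose by 1.77 ± 0.23 and DDR48 by 1.66 ± 0.13. Of 17 genes of filamentous growth, a program that shares kinases with mating, 11 were called higher and 2 lower (8 and 3 by totals), among the rises SVS1 (1.74) and BUD8 (0.86), a marker of the distal bud site. Of 27 chaperone genes, 7 were higher and 13 lower (4 and 18 by totals), and of 33 oxidative stress genes, 17 and 6 (14 and 10 by totals), with GPX2, a glutathione peroxidase, at 1.90 (0.41 in batch 4). Galactose genes, whose inducer had been withdrawn 3 h before, had 2 calls higher and 3 lower of 10 (1 and 7 by totals). These are 20% and 30%, against 30.4% and 30.1% of all genes.

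Purine and one-carbon genes were called at shares near those of all genes. Of 28, 10 were called higher and 9 lower (35.7% and 32.1%, against 30.4% and 30.1% of all genes; 9 and 13 by totals), and 12 had a more negative response in batch 4 (against 8.78% of all genes). ADE1, which has a mutant allele in this strain, rose by 1.06, and IMD4, an enzyme of guanine nucleotide synthesis, fell by 1.30. Of 26 genes of B vitamins, 13 were higher (8 in batch 2 alone), among them THI4, an enzyme of thiamine synthesis (2.05 ± 0.18), and 5 were lower (9 and 5 by totals). SER3, the first enzyme of serine synthesis, rose by 2.16 ± 0.07, and CHA1, which degrades serine, fell by 2.38. Iron genes had 8 calls higher and 8 lower of 30, or 26.7% each, against 30.4% and 30.1% of all genes (5 higher in batch 1 alone, and 4 and 15 by totals). Among them were HMX1, a heme oxygenase, at 2.22 and SIT1, a siderophore transporter, at -1.84. Lipid genes that fell included ELO1, a fatty acid elongase, at -2.70 ± 0.15 and FAA4, a fatty acyl-CoA synthetase, at -2.62 ± 0.08, while the 27 sterol genes had 11 calls higher and 6 lower (7 higher in batch 2 alone; 7 and 11 by totals). YRO2, a relative of MRH1, was at -2.97 ± 0.24 and NCA3 at -2.83 ± 0.09.

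Some of the largest changes were at features outside the lists of mating genes. IME4, which encodes the mRNA methyltransferase of early meiosis, had the largest rise among the genes with counts in every library, with 261, 268, 245 and 248 CPM in treated cells, against 1.54, 1.75, 0.883 and 1.41 CPM in untreated cells (log2 fold change 7.55 ± 0.11, SE, adjusted p = 1.86e-12). RME2, the noncoding RNA annotated antisense to IME4, moved the opposite way, with 28.0, 25.5, 31.9 and 34.3 CPM in treated cells, against 120.2, 127, 121 and 128 CPM in untreated cells (log2 fold change -2.05 ± 0.08, SE, adjusted p = 1.22e-09). RME2 was singled out after its values were seen. The library kit keeps strand, but whether the counting used it is not given in the sources used here, so reads of this overlapping pair cannot be assigned with certainty. Of 23 meiosis genes tested, 12 were called higher and 4 lower (6 higher in batch 1 alone; 8 and 5 by totals). SPO11, the recombination nuclease, averaged 31.8 ± 4.84 CPM in treated cells and 2.27 ± 0.464 CPM in untreated cells (3.83). MF(ALPHA)1, the gene for alpha-factor itself, which belongs to the other mating type, had the largest fall of the tested genes, with 1.24, 0.624, 1.66 and 1.16 CPM in treated cells, against 41.2, 43.6, 23.8 and 31.5 CPM in untreated cells (log2 fold change -4.80 ± 0.22, SE, adjusted p = 7e-09). Of the other alpha-cell genes, SAG1 was at -0.56, MF(ALPHA)2 at -0.53 (adjusted p = 0.124, but called without treated replicate 3, at -0.86, or untreated replicate 4, at -0.71) and AFB1 at -0.13 (adjusted p = 0.106). Of the 4 alpha-cell genes tested, 0 were called higher and 2 lower (0 and 4 by totals). Both Ty3 copies rose, with YGR109W-B, the longer reading frame of 1 copy, averaging 34649 ± 5400.1 CPM in treated cells and 1632 ± 150.1 CPM in untreated cells (log2 fold change 4.40 ± 0.29, SE, adjusted p = 1.37e-07) and YIL082W-A of the other copy averaging 43650.0 ± 8072 CPM in treated cells and 3120.2 ± 315 CPM in untreated cells (3.80). Their reads are shared. Of 18 transfer RNA features with enough counts to test, 9 were called higher and 0 lower. No untreated value of the 9 exceeded 1.85 CPM, so they could pass the filter on low counts through the treated libraries in which they are high, and the count describes them and is no test. The 5 of these whose untreated libraries were not all at 0 had log2 fold changes of 2.75 to 6.23. Mature transfer RNAs are poorly captured by such libraries. Ty3 is known to insert just in front of transfer RNA genes, and its part in these reads was not tested.

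In ste12Δ cells most of the named mating genes had small responses, while part of the metabolic response was still measured. STE12 itself had 0.274 to 6.8 CPM of the unscaled library total in the 8 ste12Δ libraries and 175 to 309 in the 8 WT libraries, with the higher ste12Δ values in batch 2. In ste12Δ cells 2107 of 6064 genes (34.7%) were called different between treated cells and those untreated at 0 h, where time and pheromone cannot be told apart either, and at 2085 of 6131 genes (34%) the response of ste12Δ differed from that of WT by an interaction term in the joint fit. Of the 455 genes that rose at least 2-fold in WT, 369 had a called smaller response in ste12Δ, 1 a larger one, and 85 had no called difference. Since these genes were chosen for a large WT response in the same WT libraries, these counts describe them and are no test. The median log2 fold change of the risen genes was 0.37 in ste12Δ (425 with a value) and 1.51 in WT, and that of the 154 fallen genes was -0.41 in ste12Δ and -1.41 in WT. PRM1 had a response of 0.21 in ste12Δ and 4.91 in WT (difference -4.72 ± 0.33, SE, adjusted p = 1.39e-08). FUS2 had 0.16 and 4.23 in the same order, KAR4 -0.13 and 3.01, and PCL2 -0.15 and 3.61. FIG1, PRM2, PRM3, PRM6 and IME4 were too low in ste12Δ cells to be tested there alone, and their differences were called. Of the sulfur genes, SUL1 was at 0.82 in ste12Δ and 3.50 in WT (difference -2.69 ± 0.25, SE, adjusted p = 3.58e-07) and MET14 at 0.27 and 2.56. Of the 35 sulfur and methionine genes, 18 had a more negative response in ste12Δ and 1 a more positive one (against 16.7% and 17.3% of all genes).

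The G1/S genes CLN2 and CLB6 were called higher in ste12Δ and lower in WT. CLN2 had a response of 0.55 in ste12Δ and -0.59 in WT (difference 1.16 ± 0.14, SE, adjusted p = 8.65e-06). RNR1 had 0.28 in ste12Δ, which was not called there (adjusted p = 0.0781), and -1.69 in WT (difference 1.99 ± 0.20, SE, adjusted p = 1.24e-06), and CLB6 1.17 and -1.33 (difference 2.53 ± 0.35, SE, adjusted p = 3.63e-05). The ribosomal protein genes still fell in ste12Δ, with medians of -0.38 and -0.35 in ste12Δ for the small and the large subunit, against -0.70 and -0.66 in WT, and a more positive response in ste12Δ was called for 18 of 57 and 27 of 82 (against 17.3% of all genes). Mitochondrial ribosomal protein genes had a median of 0.20 in ste12Δ and -0.31 in WT, with a more positive response called for 44 of 70 (against 17.3% of all genes). For ADE17, SNZ1, HEM13 and DSE2 no difference was called, which does not show that their responses were equal. SNZ1 had 2.41 in ste12Δ and 3.05 in WT (difference -0.65 ± 0.36, SE, adjusted p = 0.17). HEM13 had -1.59 and -2.12 (difference 0.53 ± 0.22, SE, adjusted p = 0.0782). ADE17 had 1.68 in ste12Δ and 2.14 in WT (difference -0.47 ± 0.43, SE, adjusted p = 0.437), and DSE2 had -1.31 and -1.38 (difference 0.09 ± 0.26, SE, adjusted p = 0.816).

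In batch 4, whose untreated cells were kept for the same 60 min, most of the named mating genes had no called difference in their rise, while several metabolic genes differed. In batch 4, 3623 of 6272 genes (57.8%) were called, 28.9% higher and 28.9% lower. Of the 455 genes that rose at least 2-fold in batches 1 and 2, all 455 had a value in batch 4 and 447 the same sign, with a median of 1.35, and of the 154 that fell, 142 kept the sign, with a median of -0.99. A smaller response in batch 4 was called for 84 of the risen and 55 of the fallen genes, and a larger one for 36 and 6, and as the genes were chosen for their size in batches 1 and 2 these counts are no test. In batch 3 the same sign was found for 454 of 455 and 153 of 153, with medians of 1.49 and -1.26. The response of batch 4 differed from that of batches 1 and 2 at 1131 of 6170 genes (18.3%), a count that fell without treated replicate 1 (539), untreated replicate 2 (651) or treated replicate 2 (655) of batch 4. Batch 4 is a separate batch, so the later control and the batch cannot be told apart in these differences. PRM1, FUS1, FUS2, CIK1, KAR3 and PCL2 had no called difference, with PRM1 at 4.74 in batch 4 and 4.91 in batches 1 and 2 (difference -0.18 ± 0.16, SE, adjusted p = 0.478). KAR4 and FIG1 had called smaller responses in batch 4, at 2.41 against 3.01 and 5.21 against 5.90.

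ADE17, SNZ1, HEM13 and DSE2, which had no called ste12Δ difference, differed in batch 4. ADE17 had a response of -0.10 in batch 4 and 2.14 in batches 1 and 2 (difference -2.24 ± 0.24, SE, adjusted p = 8.22e-05), and the serine hydroxymethyltransferase gene SHM2 had -0.05 and 1.36. SNZ1 had 0.90 in batch 4 and 3.05 in batches 1 and 2 (difference -2.15 ± 0.16, SE, adjusted p = 3.67e-06), and SNO1, its partner in vitamin B6 synthesis, 0.15 and 2.35. DSE2 had 0.30 in batch 4 and -1.38 in batches 1 and 2 (difference 1.68 ± 0.27, SE, adjusted p = 0.00117), and DSE1 had 0.67 and -1.28. CTS1, which rose modestly in batches 1 and 2, had 2.06 in batch 4 (difference 1.39 ± 0.22, SE, adjusted p = 0.00128). Of the 12 separation genes, 8 had a called more positive response in batch 4 (against 9.55% of all genes). HEM13 had -0.55 in batch 4 and -2.12 in batches 1 and 2 (difference 1.57 ± 0.26, SE, adjusted p = 0.00155), IZH4 -1.73 and -3.60, and 8 of 26 hypoxic genes had a called more positive response (against 9.55% of all genes). Sulfur and methionine genes had a median of 0.27 in batch 4 and 1.06 in batches 1 and 2. A more negative response in batch 4 was called for 12 of the 35 (against 8.78% of all genes). Among them, SUL1 and MET3 had no called difference, at 3.27 and 2.44 in batch 4, whereas MET6 had 0.68 in batch 4 and 1.71 in batches 1 and 2 (difference -1.03 ± 0.23, SE, adjusted p = 0.00899). The trehalose synthesis genes TPS2 and TSL1 had the opposite signs, at 1.02 and 0.88 in batch 4 and -0.47 and -0.95 in batches 1 and 2. Ribosome biogenesis genes had a median of -0.81 in batch 4 and -0.41 in batches 1 and 2, and a called more negative response at 53 of 103 (against 8.78% of all genes). For ribosomal proteins of the small and the large subunit the batch 4 medians were -0.44 and -0.43, with a more positive response called for 13 of 57 and 17 of 82 (against 9.55% of all genes).

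**Figure D5:**
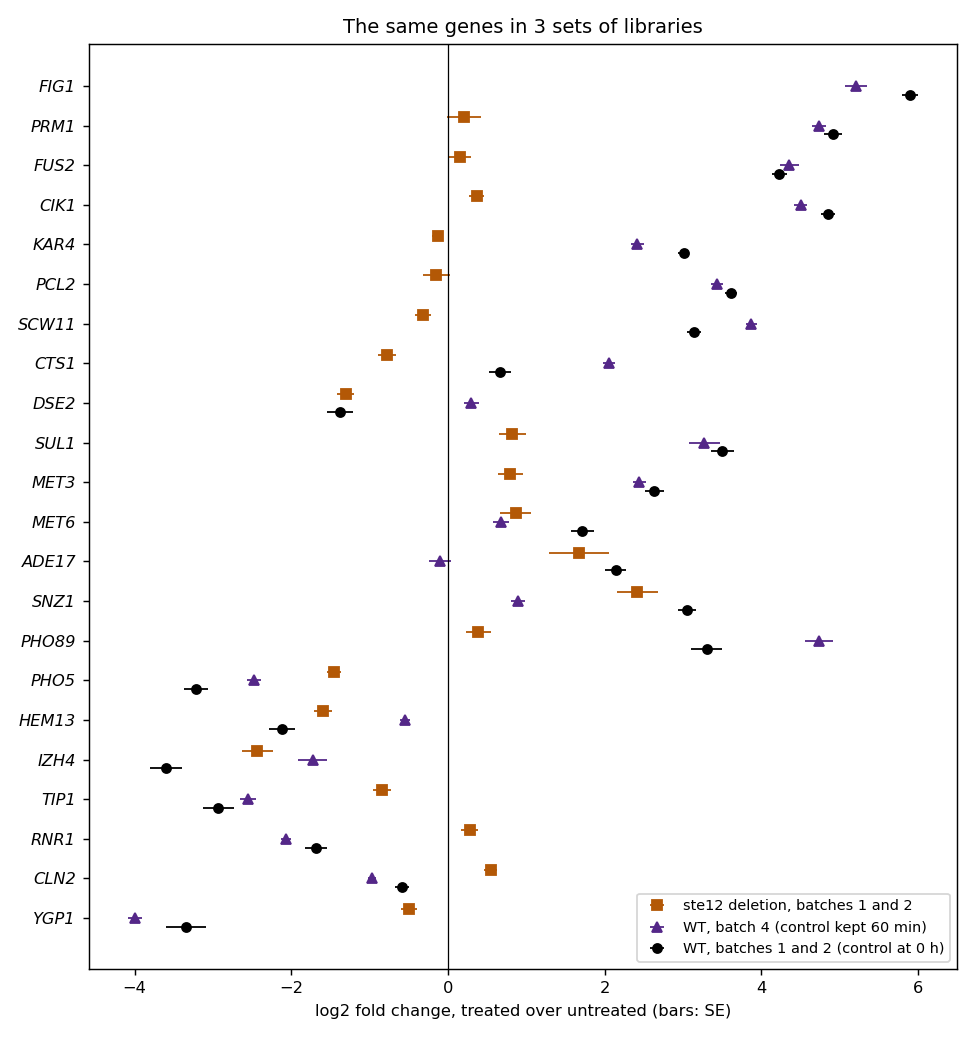
Log2 fold changes of treated over untreated cells for 22 genes in ste12Δ of batches 1 and 2 (squares), WT of batch 4 with a control kept for 60 min (triangles) and WT of batches 1 and 2 (circles), with bars of 1 standard error; FIG1 was too low to test in ste12Δ. PRM1, FUS2, CIK1 and PCL2 lie near 0 in ste12Δ and between 3.44 and 4.91 in both WT sets, whereas ADE17 is 1.68 in ste12Δ, 2.14 in WT of batches 1 and 2 and -0.10 in batch 4.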

How the data were processed

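RNA from whole cultures was sequenced, and the authors deposited 1 table of expected counts per feature for 44 columns and 7127 features. Per the submitters' processing notes, the tools were STAR and featureCounts and the genome sacCer3, while their versions, options, annotation and use of strand are not given in the sources used here. The deposited counts are fractional (24.5% of values whole, within 1e-09) and were rounded to whole numbers. Of the features, 6047 matched the RefSeq annotation of the same assembly and 1080 did not. How reads of near-identical or overlapping genes were divided is not given in the sources used here, so such genes may share counts.

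The 8 WT libraries of batches 1 and 2 (4248572 to 10552263 counts) were grouped by their titles and fitted with edgeR 4.0.16 in R 4.3.3 (quasi-likelihood test, TMM scaling, filterByExpr with a minimum count of 10 and a total of 15, batch as a term), with Benjamini-Hochberg adjustment over all tested features and a threshold of 0.05. Response differences were interaction terms in joint fits with batch 4 (WT) or with ste12Δ. Library measures were compared by exact two-sided permutation tests. The fit was tested on simulated data. limma 3.58.1 and DESeq2 1.42.0 were the versions loaded, and DESeq2 was an alternative. Other alternatives were library totals, no filter, no batch term, each batch alone, a replicate block and leaving out each library. Per the labels' protocols, same-numbered treated and untreated samples are parts of 1 culture, so the block pairs them. Their deviations from the group means correlated at 0.40 to 0.62, those of differently numbered samples of the same batch at 0.33 to 0.55, and with the batch means removed the values were 0.17 in batch 1 and 0.11 in batch 2. In batch 3, 4 pairs of WT columns were averaged because their counts differed by less than sampling noise (chi-square per degree of freedom 0.444 to 0.701 over the averaged pairs, against 8.93 to 53.3 between WT replicates of a batch in batches 1 and 2).

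Genes were named by rule: the 15 largest rises and 15 largest falls among called genes with no overlap between groups and a mean of at least 1 log2 CPM; all members of the receptor, feedback, a-specific, alpha-specific, fusion, nuclear fusion and PRM lists; and the 3 called members with the largest change in each other list. A gene that this rule names is not reported here. Other genes named were picked with their values in view. The samples, the 49 gene lists and the tests were chosen with earlier results of these data known. Promoters are the 300 bases before each start codon.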

Additional observations from a re-analysis of the deposited data

Results flagged for a closer look

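Among 112 groups of 4 libraries checked (treated and untreated values of the genes given library by library, and the library measures), 6 held a library far from its 3 fellows, about as many as chance gives at 1 in 20. They were treated replicate 1 for GFA1 (1014 CPM) and PHO5 (24.3 CPM), treated replicate 3 for MET3 (291 CPM), untreated replicate 4 for DIG2 (15.7 CPM), untreated replicate 3 for CHS1 (350.2 CPM), and untreated replicate 3 for the ribosomal RNA share (2.97%). None of these values reached the other group's range for the 5 genes.

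The response of ste12Δ differed from that of WT at 2085 genes, and that of batch 4 from batches 1 and 2 at 1131 genes, both by the interaction term. The differences below are log2 responses of ste12Δ minus WT, each past an adjusted p of 0.05 by edgeR's quasi-likelihood test. They were negative at the cascade and feedback genes STE2 (-0.62), FUS3 (-1.40), DIG2 (-3.12), KAR4 (-3.13), MSG5 (-2.15) and SST2 (-0.57). The fusion genes gave FUS1 -2.73, PRM1 -4.72, FUS2 -4.09, AGA1 -1.47, CIK1 -4.47, KAR3 -3.48 and PRM3 -5.51, and the value was -5.14 for FIG1. Wall and separation genes gave SLT2 -1.27, GSC2 -2.35, CHS1 -1.58, GFA1 -1.18, SCW10 -0.80, SCW11 -3.43 and CTS1 -1.44, with TIP1 at 2.13. In the cell cycle PCL2 gave -3.75 and FAR1 -1.09, against CLN2 1.16, RNR1 1.99 and CLB6 2.53. Nutrient genes gave MET3 -1.82, SUL1 -2.69, MET6 -0.84, PHO89 -2.95, HXT2 -3.15, PGM1 -2.65 and GPD1 -1.27, against PHO5 1.79, PHO84 1.32, HXT1 1.13, IZH4 1.17, FET3 2.05 and LYS20 1.93. Other genes that fell in WT gave YEF3 0.54, RRP5 0.70, MF(ALPHA)1 3.83, INA1 2.48, YGP1 2.89, MRH1 2.80 and RME2 2.12, and IME4 gave -7.04.

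For batch 4 minus batches 1 and 2, the called differences were KAR4 -0.60, MSG5 -0.32, FAR1 -0.40, CLB6 -1.12 and -0.695 (FIG1), with GSC2 0.78, SCW11 0.73, CTS1 1.39 and DSE2 1.68. Metabolic genes gave MET6 -1.03, ADE17 -2.24 and SNZ1 -2.15, against PHO5 0.74, PHO89 1.43, HXT1 1.00, HEM13 1.57, IZH4 1.88 and GPD1 0.40. Batch and control time cannot be told apart in these values.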

How the results depend on the processing

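The count of higher genes in WT of batches 1 and 2 was 1209 with library totals, against 1823. The total of 3623 called genes was 3393 with DESeq2, 3458 with the replicate block, 2882 with no batch term, 2747 in batch 1 alone, 2847 in batch 2 alone and 3309 to 3443 with a library left out. With the replicate block batch 4 gave 4156, batch 3 gave 3500, ste12Δ gave 2219 and the differences 1021 for batch 4 and 2321 for ste12Δ. Leaving out a library gave 2038 to 2893 in batch 3 (3135 in full), 1563 to 2038 in ste12Δ (2107), 539 to 1176 for the batch 4 difference (1131) and 1806 to 2094 for the ste12Δ difference (2085). The ste12Δ response had 768 calls with no batch term and 782 in batch 1 alone, and the ste12Δ difference 1285 in batch 1 alone. The cause of these shifts was not tested. Of 206 named genes, 183 had the same call and sign in every setting, and 1 changed sign, YCK1, at -0.039 with library totals. Many of the 206 were named for large called changes in these same libraries, so these counts describe them and are no test. The block ended the calls of STE6, STE7 and YCK1, given above. Counts of calls in single gene lists moved by over 1.5 times for 19 counts in batch 1 alone, 15 in batch 2 alone, 35 with library totals and 15 with no batch term, many of them small counts; examples are the mitochondrial ribosomal proteins (14 lower in batch 1 alone) and secretion (13 lower in batch 2 alone). Depth limits the genes under the count filter, among them STE3 and BAR1, and the low features PCL1, CLB6 and CDC6.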
